A study of Rattus norvegicus with 6 samples.

Results

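The lysosome and autophagy genes described here are 40 genes: lysosomal hydrolases and their cofactors, lysosomal membrane proteins, proton pump subunits, the TFEB family of transcription factors and autophagy genes, with *Gpnmb*. They were taken by name from a list of gene symbols, and all 40 have a row among the 17315 rows of the expression tables. The list was chosen with earlier results of these data known, so its shares beside all genes are a description and not a test. The cells were adult rat hippocampal NSCs (HCN), a cloned line of neural stem cells from the hippocampus of Fisher 344 rats. One group had received a negative control duplex by reverse transfection (siControl, 3 samples), and the other a single duplex against *Derl1* (siDerl1, 3 samples). *Derl1* encodes Derlin-1, an endoplasmic reticulum membrane protein that takes part in the removal of misfolded proteins. All 6 samples, controls included, had then been held with BMP4 for 2 days to induce quiescence, so that no proliferating culture is among them. Nothing in the labels says whether samples of one group came from separate cultures, so p-values measure only the spread between these samples.

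Lysosomes are acidic organelles in which hydrolases break down proteins, sugars and lipids that arrive by endocytosis or autophagy. A proton pump keeps them acidic, and autophagy wraps parts of the cytoplasm in a membrane that later fuses with them. The factors TFEB, TFE3 and MITF bind E-box type sequences near many of these genes and set their transcription. In neural stem cells, lysosomes are known to be more prominent in quiescence than in proliferation.

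Values are TPM, the share of all transcripts in a sample that a gene takes, corrected for transcript length and scaled to the same total in each sample. They keep no read numbers, so the depth behind a value is unknown. Differences are siDerl1 minus siControl on the log2(TPM + 1) scale, which understates the change of low genes, and come from limma over the 10331 genes with a mean of at least 1 TPM. A gene was counted as past the limits when the ratio of mean TPM was above 1.5 or below 0.8 and the unadjusted limma p was under 0.05. SE is the standard error of a difference. *Derl1* was at 122, 132 and 128 TPM in siControl samples 1, 2 and 3 and at 44.9, 70.8 and 74.0 TPM in siDerl1 samples 1, 2 and 3. The difference was −1.03 (SE 0.18), with limma adjusted p values of 0.497 and, with the sample number as a replicate block, 0.00884, which became 0.229 when the block was fitted with no intensity trend. All 10 neural stem and radial glial markers examined, *Sox2* and *Nes* among them, were detected, with a summed level of 4062 to 5995 TPM in siControl and 4479 to 5957 TPM in siDerl1 NSCs. *Vim* made up most of that sum, at 3008 to 5044 TPM, while *Pax6* was at 2.24 to 4.88 TPM. *Sox9* was at 7.5 and 9.42 TPM in the samples numbered 1 and at 34.7 to 38.3 TPM in the other 4. The oligodendrocyte lineage marker *Sox10* was present too, at up to 787 TPM, whereas *Mog* was at 0. Both samples numbered 1 stood apart from the other 4 along the first principal component, which held 55.7% of the variance.

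Of the 40 genes, RefSeq promoters (GRCr8, from 250 bases before to 50 after a start site) were matched for 35, and those of *Asah1*, *Atp6v1h*, *Ctsb*, *Hexa* and *Psap* were not. The E-box CACGTG was found in 9 of the 35 (25.7%), against 6.42% of all 33469 promoters in the table, 9.83% of those of the 7953 tested genes with a match and 19.6% of those of 138 other genes of the pathway. The longer palindrome TCACGTGA, which contains it, was found in 5 (14.3%), those of *Cln3*, *Ctsd*, *Mcoln1*, *Lamp1* and *Atp6v0d1*, against 0.777% of all promoters, 1.74% of those of tested genes and 10.1% of those of the other pathway genes. The sequence TCATGTGA, read on either strand and so also as TCACATGA, was found in 5 (14.3%), those of *Tpp1*, *Ctss*, *Gpnmb*, *Cd63* and *Grn*, against 1.16%, 1.03% and 9.42% in the same order. The matches whose window of 28 bases lies wholly before the start site are printed 5′ to 3′ on the strand of the gene, with the matched bases in capitals, because *Gpnmb*, the gene with the largest difference below, has one of them.
Gpnmb, plus strand, chr4:79341095-79341122: gcttaaaacaTCACATGAtctccctctg
Tpp1, minus strand, chr1:169515961-169515988: cggatcgtgcTCATGTGActtatcacat
Tpp1, minus strand, chr1:169515949-169515976: atgtgacttaTCACATGActatagatca
Cd63, plus strand, chr7:1922017-1922044: tgttcccgcgTCACATGAgagagggagg
Grn, plus strand, chr10:87887627-87887654: gattctctaaTCACATGAtccctagaaa
Lamp1, minus strand, chr16:83075112-83075139: gaccctcggcTCACGTGAccggcgggcg
Lamp1, minus strand, chr16:83075085-83075112: gcggcactgtTCACGTGAcaggcgctgc
Cln3, minus strand, chr1:190597951-190597978: acgggtactgTCACGTGAtccccaacct
Atp6v0d1, minus strand, chr19:50357284-50357311: cccattgtggTCACGTGAgatgcagtgc

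The *Gpnmb* match begins 23 bases before the start site, and those of *Lamp1* begin 66 and 39 bases before it. A match describes these letters only, and binding was not measured.

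Most of these genes were abundant. The median of the mean TPM was 112 over the 37 members with a mean of at least 1 TPM, against 33.5 over all genes tested. The tetraspanin gene *Cd63* was at over 1000 TPM, 20 members were between 100 and 1000 TPM, 12 between 10 and 100 TPM, and 4 between 1 and 10 TPM. The 3 members under 1 TPM, the cysteine protease genes *Ctsk*, *Ctsh* and *Ctsz*, were not tested. The 40 genes together took 0.77% to 0.857% of all TPM. Their sum was 8529, 7861 and 7696 TPM in siControl samples 1, 2 and 3 and 8567, 7897 and 7767 TPM in siDerl1 samples 1, 2 and 3. The sum thus followed the sample number, and in each like-numbered pair the siDerl1 sample was higher by less than the spread within a group.

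**Figure D1:**
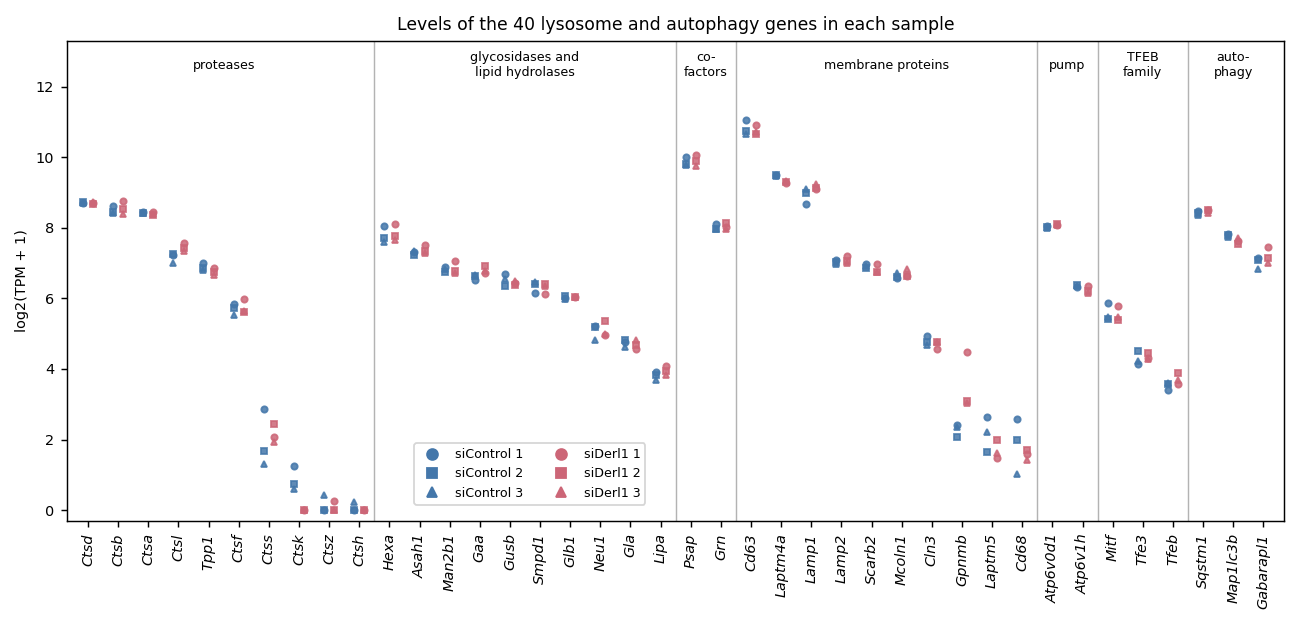
Levels of the 40 genes as log2(TPM + 1), with 1 point per sample, siControl in blue and siDerl1 in red, the shape giving the sample number, and genes ordered by level within each role. In most genes the 6 points lie close together, while those of *Gpnmb*, *Ctss*, *Cd68*, *Laptm5* and *Ctsk*, all under 10 TPM on average, lie farther apart.

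Between siDerl1 and siControl NSCs, *Gpnmb* was the member with the largest difference, and 33 of the 37 tested members (89.2%) differed by less than 0.25 on the log2 scale in either direction, as did 85.8% of all genes tested. The median difference of the 37 was 0.03, beside −0.02 over all genes tested, with 22 higher and 15 lower. One member, *Gpnmb*, was past the limits as higher, where 0.716% of all genes tested were, and 0 were past them as lower, where 1.49% were. No member had an adjusted p under 0.05 in limma (Benjamini-Hochberg), nor did any other gene tested, and the smallest among the members was 0.704. With the block the counts past the limits were again 1 higher and 0 lower, where 1.66% and 2.57% of all genes tested were. The smallest adjusted p was then 0.0631, and 0.552% of all genes tested (57 genes) passed, but 0 with the block and no intensity trend. At an unadjusted p under 0.05 there were 5 members (13.5%), against 6.7% of all genes tested, and with the block 8 (21.6%), against 15.7%. The groups did not overlap for 5 members as higher (13.5%) and 2 as lower (5.41%), against 5.09% and 8.52% of all genes tested. In 12 members (32.4%) siDerl1 was higher in all 3 like-numbered pairs, against 15.8%, and in 4 (10.8%) lower, against 22.1%. The 95% interval of the difference lay wholly within a change of 1.5-fold in either direction for 33 of the 37 (89.2%), against 74.7% of all genes tested. The median width to either side was 0.24, against 0.28.

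**Figure D2:**
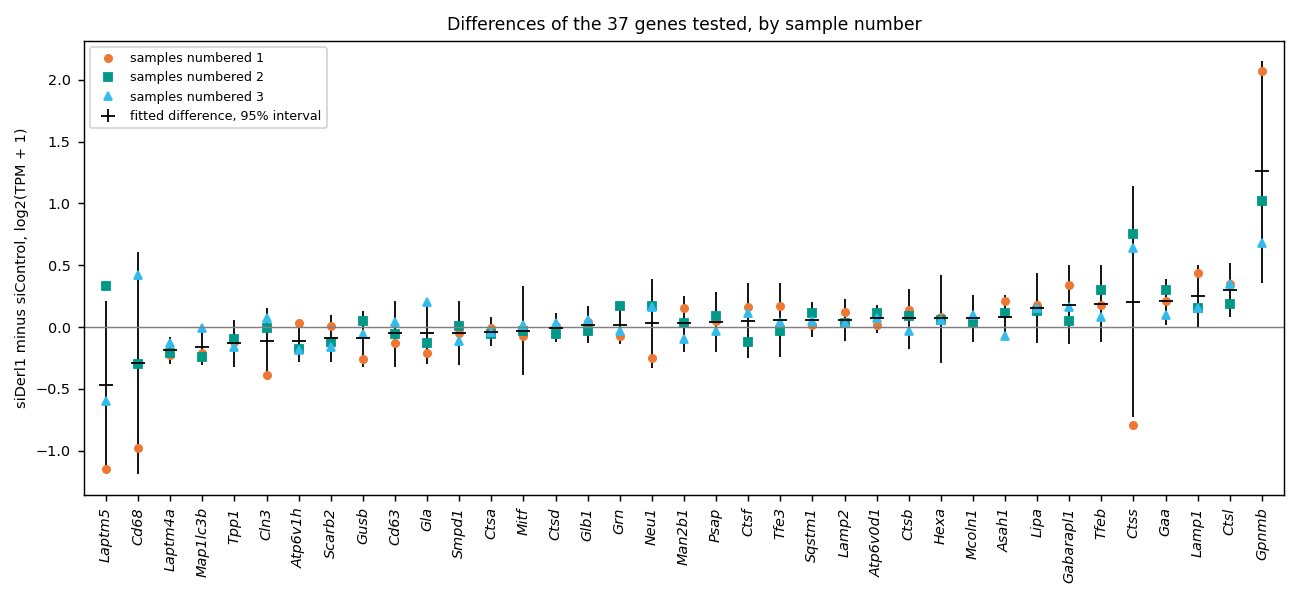
Difference between siDerl1 and siControl of the 37 tested genes on the log2(TPM + 1) scale, with the fitted value and its 95% interval as a bar and the 3 pairs of samples of the same number as points. Most intervals span 0, and *Gpnmb*, at the right, has all 3 pairs between 0.68 and 2.07.

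*Gpnmb* (NM_133298) encodes a transmembrane glycoprotein of lysosomes and melanosomes that is known as a target of MITF and TFE3. It was at 4.33, 3.17 and 4.16 TPM in siControl samples 1, 2 and 3 and at 21.3, 7.46 and 7.26 TPM in siDerl1 samples 1, 2 and 3. All siDerl1 values lay above all siControl values, and that of siDerl1 sample 1 was far above the rest. The means were 3.89 ± 0.626 and 12 ± 8.06 TPM (SD, n = 3 each), a ratio of 3.091. On the log2 scale the difference was 1.26 (SE 0.38, 95% interval 0.36 to 2.15), with a limma p of 0.0128 unadjusted and 0.704 adjusted. With the replicate block the limma adjusted p was 0.0694, and 0.276 with the block and no intensity trend. Without siDerl1 sample 1 the difference was 0.78, and the gene was past the limits. siDerl1 sample 1 was also the sample with the least *Derl1*, and the part of that in the result was not tested.

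*Gpnmb* is also expressed by macrophages and microglia. Of 16 microglia and macrophage markers, 15 were under 1 TPM in every sample and 7 were at 0 throughout, *Cx3cr1*, *Trem2*, *Tyrobp* and *C1qa* among them. Their summed level was 4.15 to 4.86 TPM in siControl and 3.8 to 6.38 TPM in siDerl1 NSCs, most of it from *P2ry12*.

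The other membrane proteins differed less. *Lamp1*, which encodes a major glycoprotein of the lysosomal membrane, was at 406, 506 and 542 TPM in siControl and at 552, 561 and 601 TPM in siDerl1 NSCs. The groups did not overlap, the lowest siControl value being that of sample 1. The fitted difference was 0.25 (SE 0.11, limma adjusted p = 0.74), and 0.12 without siControl sample 1. *Laptm4a*, which encodes a small transmembrane protein of late endosomes and lysosomes, was at 721, 722 and 703 TPM in siControl and at 614, 622 and 645 TPM in siDerl1 NSCs. Each siDerl1 sample was below each siControl sample. This gave a difference of −0.19 (SE 0.05, limma adjusted p = 0.704, 0.00548 unadjusted), a ratio of 0.876, which is not past the limits. The others detected above 10 TPM had overlapping groups. They were *Lamp2* (a log2 difference of 0.06), which encodes another major membrane glycoprotein, *Scarb2* (−0.09), which encodes a receptor that carries an enzyme to lysosomes, *Cd63* (−0.05), the cation channel gene *Mcoln1* (0.07) and *Cln3* (−0.11), the gene of a form of Batten disease.

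*Cd68* and *Laptm5*, which are best known from macrophages and blood cells, were low and uneven. *Cd68* was at 4.93, 3.0 and 1.02 TPM in siControl and at 2.0, 2.24 and 1.70 TPM in siDerl1 NSCs. *Laptm5* was at 5.18, 2.14 and 3.60 TPM in siControl and at 1.78, 2.95 and 2.04 TPM in siDerl1 NSCs. In both, siControl sample 1 was the highest of the 6 and the groups overlapped. Their log2 differences were −0.29 (SE 0.38) and −0.47 (SE 0.29), with limma adjusted p values of 0.934 and 0.795. Each turned on single siControl samples. *Cd68* was past the limits as lower without siControl sample 3 (−0.71), but had a difference of 0.06 without siControl sample 1. *Laptm5* was past the limits as lower without siControl sample 2 (−0.73), and at −0.24 without siControl sample 1.

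**Figure D3:**
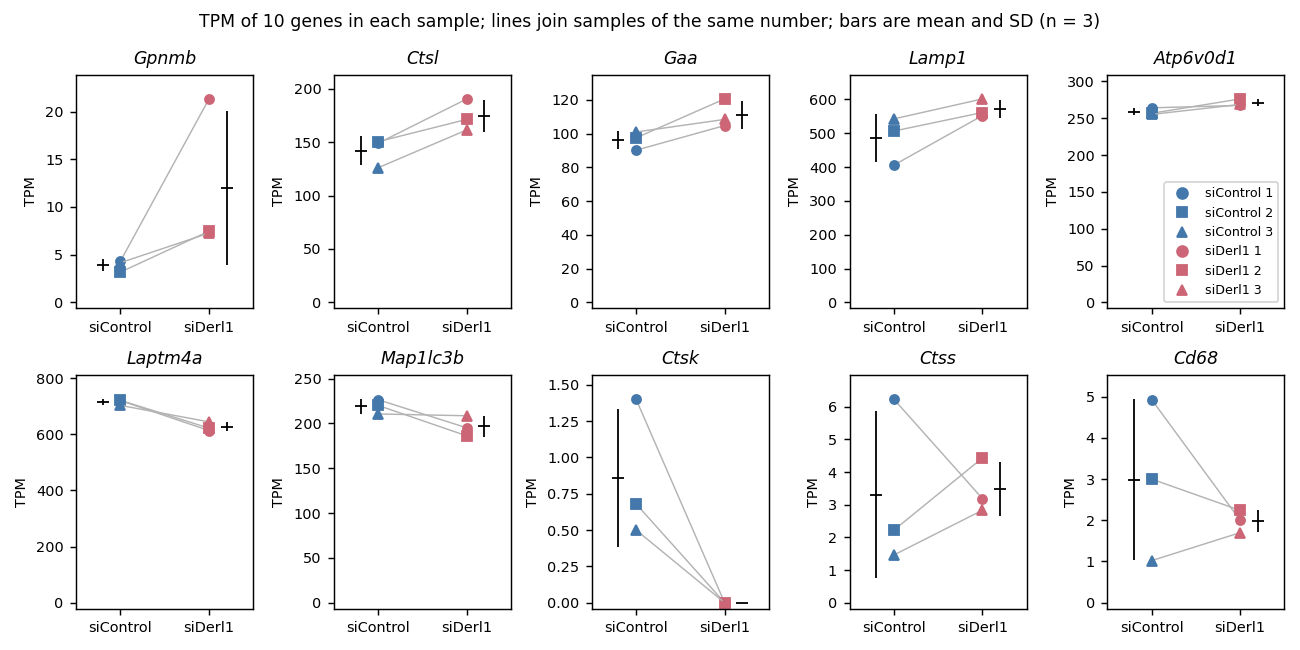
TPM of 10 of the genes in each sample, from 0 upwards, with lines joining the like-numbered samples of both groups and bars for the mean and SD (n = 3). *Gpnmb*, *Ctsl*, *Gaa*, *Lamp1* and *Atp6v0d1* have every siDerl1 point above every siControl point, *Laptm4a*, *Map1lc3b* and *Ctsk* have every siDerl1 point below, and *Ctss* and *Cd68* overlap.

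Among the 7 proteases tested, *Ctsl* had the largest difference. It encodes cathepsin L, a cysteine endopeptidase. *Ctsl* was at 149, 151 and 126 TPM in siControl and at 191, 171 and 162 TPM in siDerl1 NSCs. No siDerl1 sample was as low as a siControl sample, and the pairs 1, 2 and 3 differed by 0.35, 0.19 and 0.35 on the log2 scale. Over the groups the difference was 0.30 (SE 0.09, 95% interval 0.08 to 0.52), with a limma p of 0.0156 unadjusted and 0.704 adjusted (0.0631 with the replicate block). Fitted with the block and no intensity trend, the limma adjusted p was 0.284. The ratio of 1.229 was under the limit for a higher gene.

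*Ctsk* encodes cathepsin K, the collagen-degrading protease known from osteoclasts. It was at 1.40, 0.68 and 0.50 TPM in siControl samples and listed at 0 in all 3 siDerl1 samples. With a mean under 1 TPM it was not in the main test, and an exact permutation test gave a two-sided p of 0.1, the smallest that 3 against 3 samples allow. With no filter on low values the gene was past the limits, with a limma adjusted p of 0.627 (0.00202 unadjusted). *Ctsh* was listed at 0 except for 0.18 TPM in siControl sample 3. *Ctsz* was listed at 0 except for 0.35 TPM in siControl sample 3 and 0.19 TPM in siDerl1 sample 1.

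*Ctss*, the gene of cathepsin S, a protease of antigen-presenting cells, differed in direction between pairs. It was at 6.23, 2.22 and 1.46 TPM in siControl and at 3.19, 4.43 and 2.83 TPM in siDerl1 NSCs. The siDerl1 sample was lower in pair 1 and higher in pairs 2 and 3, by −0.79, 0.75 and 0.64. Its difference over the groups was 0.20 (SE 0.40, limma adjusted p = 0.953). Without siControl sample 1 it was 0.66 and past the limits, and without both samples numbered 1, a check added after the values had been seen, it was 0.70 and past them (limma adjusted p = 0.44).

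The most abundant proteases had nearly equal levels in both groups. *Ctsd*, for the aspartic protease cathepsin D, was at 417 ± 6.27 TPM in siControl and 416 ± 6.48 TPM in siDerl1 NSCs (SD, n = 3 each), with an interval of the log2 difference of −0.12 to 0.11. *Ctsa*, for a carboxypeptidase that also protects β-galactosidase and neuraminidase, was at 346 ± 3.41 and 337 ± 8.68 TPM, with an interval of −0.15 to 0.08. *Ctsb* (0.07), *Ctsf* (0.05) and *Tpp1* (−0.13), a tripeptidyl peptidase gene, had overlapping groups and limma adjusted p values between 0.809 and 0.96.

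Of the 10 glycosidase and lipid hydrolase genes, all were within 0.25 of no change, 7 of them higher and 3 lower, with a median of 0.03. *Gaa*, for the acid α-glucosidase that degrades glycogen in lysosomes, was at 90.1, 97.4 and 101 TPM in siControl and at 105, 121 and 108 TPM in siDerl1 NSCs. The groups did not overlap. They differed by 0.21 on the log2 scale (SE 0.08, limma adjusted p = 0.707, 0.0332 unadjusted). In the others the groups overlapped. They were *Gla* and *Glb1* for α- and β-galactosidase (−0.05 and 0.02), *Gusb* for β-glucuronidase (−0.09), *Hexa* for the α subunit of β-hexosaminidase (0.07), *Neu1* for a sialidase (0.03) and *Man2b1* for an α-mannosidase (0.03). The lipid enzymes were *Lipa* for acid lipase (0.15), *Asah1* for acid ceramidase (0.08) and *Smpd1* for acid sphingomyelinase (−0.05). *Glb1* had the narrowest interval of these, −0.13 to 0.17. The cofactor genes *Psap*, for the precursor of the saposins, and *Grn*, for progranulin, had log2 differences of 0.04 and 0.02. *Psap* was at 936 ± 87.4 and 963 ± 109 TPM (SD, n = 3 each), the second most abundant of the 40.

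The pump, the regulators and the autophagy genes were likewise close between groups. *Atp6v0d1*, for a subunit of the membrane part of the proton pump, was at 264, 257 and 255 TPM in siControl and at 267, 276 and 269 TPM in siDerl1 NSCs. The groups did not overlap, but the difference was 0.07 (SE 0.05, limma adjusted p = 0.845). *Atp6v1h*, for a subunit of the cytosolic part, had −0.11. *Tfeb* was at 10.5 ± 0.855 TPM in siControl and 12.2 ± 1.40 TPM in siDerl1 NSCs (SD, n = 3 each), higher in all 3 pairs, with an interval of the log2 difference of −0.12 to 0.50. *Tfe3* and *Mitf*, at 18.6 and 47.4 TPM in siControl NSCs, had 0.06 and −0.03 with overlapping groups. The rows do not tell the isoforms of *Mitf* apart.

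*Map1lc3b*, for the autophagosome protein LC3B, was at 226, 220 and 211 TPM in siControl and at 195, 186 and 209 TPM in siDerl1 NSCs. The groups did not overlap, although the highest siDerl1 value was close to the lowest siControl value. A difference of −0.16 was fitted (SE 0.06, limma adjusted p = 0.736, 0.0442 unadjusted). Its relative *Gabarapl1*, of the same ATG8 family, went the other way, with 0.18 (SE 0.14, limma adjusted p = 0.844), higher in all 3 pairs with overlapping groups. It was 0.05 without siDerl1 sample 1. Other genes of the family are named here after their values were seen. *Map1lc3a* had 0.16 (SE 0.05, limma adjusted p = 0.704), with every siDerl1 sample above every siControl sample. *Gabarap* (0.01) and *Gabarapl2* (−0.03) had overlapping groups. *Sqstm1*, for the autophagy receptor p62, had 0.06 (95% interval −0.08 to 0.20). Whether RSEM split reads between genes of the ATG8 family was not tested.

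The members with the TCACGTGA sequence in the promoter had log2 differences from −0.11 to 0.25 with a median of 0.07, and those with TCATGTGA from −0.13 to 1.26 with a median of 0.02. The median over all tested genes with a matched promoter that holds the first was 0.00 (138 genes), and 0.00 (82 genes) for the second, against −0.02 for the genes without it. *Gpnmb* was the only one of these 10 members past the limits.

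Several members were set apart by sample number under both siRNAs. In 11 of the 37 (29.7%) both samples numbered 1 were above the other 4, against 15.7% of all genes tested, and in 1 (2.7%), *Smpd1*, both were below, against 17%. The 11 were *Ctsa*, *Ctsb*, *Ctsf*, *Tpp1*, *Hexa*, *Man2b1*, *Psap*, *Lamp2*, *Scarb2*, *Cd63* and *Mitf*. *Hexa* was at 263, 209 and 193 TPM in siControl and at 277, 218 and 201 TPM in siDerl1 NSCs. *Cd63* was at 2110, 1699 and 1624 TPM in siControl and at 1926, 1628 and 1666 TPM in siDerl1 NSCs. *Mitf* was at 57.3, 42.0 and 43.1 TPM in siControl and at 54.4, 41.0 and 43.8 TPM in siDerl1 NSCs. In these genes the samples numbered 2 and 3 were close to each other and the values numbered 1 were higher under both siRNAs. The sample 1 minus the mean of samples 2 and 3 was 0.39 and 0.40 for *Hexa* in siControl and siDerl1 NSCs, and 0.42 and 0.35 for *Mitf*. *Gpnmb* had 0.20 in siControl and 1.42 in siDerl1 NSCs, while *Ctss* had 1.36 and −0.12. What set the number 1 samples apart is not in the labels, and these values are a description with no test.

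**Figure D4:**
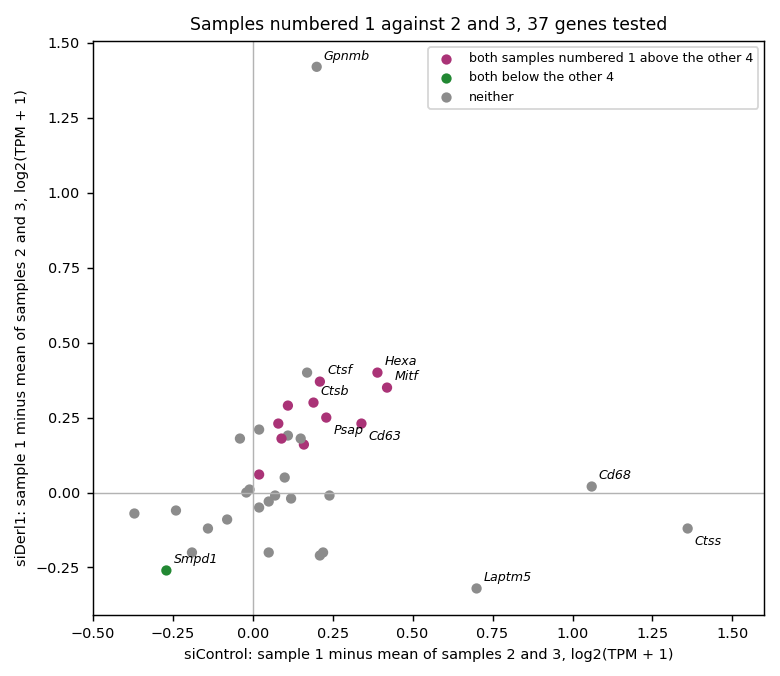
Sample 1 minus the mean of samples 2 and 3 for the 37 tested genes, in siControl (horizontal) and siDerl1 NSCs (vertical), both as log2(TPM + 1). The 11 genes in purple have both samples numbered 1 above the other 4 and lie in the upper right, *Smpd1* in green lies in the lower left, and *Gpnmb*, *Ctss*, *Cd68* and *Laptm5* are displaced along one axis.

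Of 182 other symbols of the pathway, 170 had a row and 160 were tested. Their median difference was 0.01, with 84 higher and 76 lower, 0 past the limits as higher and 2 (1.25%) as lower, where 0.716% and 1.49% of all genes tested were. *Pla2g15* was among the latter. *Pla2g15*, for the lysosomal phospholipase A2, was at 16.2, 14.9 and 11.9 TPM in siControl and at 10.9, 9.96 and 8.26 TPM in siDerl1 NSCs. The groups did not overlap. It had a difference of −0.52 (SE 0.16, limma adjusted p = 0.704, 0.0135 unadjusted, 0.104 with the block).

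By class, 0 genes were past the limits in the other 6 groups: 28 membrane and transport proteins (median 0.05), 18 proton pump subunits (0.01), 15 genes of mannose 6-phosphate sorting (−0.01), 20 of lysosomal mTORC1 control (0.02), 36 of autophagosome formation (−0.03) and 12 of fusion with lysosomes (0.00). The enzymes and cofactors, with *Pla2g15* among them, had a median of 0.02 over 31 genes. The largest difference was that of *Mcoln3*, a cation channel gene of the same family as *Mcoln1*, which is named here after its values were seen. *Mcoln3* was at 13.49, 8.84 and 11.27 TPM in siControl and at 41.48, 13.34 and 13.78 TPM in siDerl1 NSCs. As with *Gpnmb*, siDerl1 sample 1 held by far the highest value and each pair was higher in siDerl1, but here the groups overlapped. Its difference was 0.79 (SE 0.41, limma adjusted p = 0.767, 0.144 with the block), and the gene was past the limits with the block and not without it. Without siDerl1 sample 1 and without the block, the difference was 0.27 and the ratio 1.211 in place of 2.042. Others past the limits with the block and not without it, likewise named after their values were seen, were *Atp6v1c2* (0.52) as higher and *Wdfy3* (−0.30) as lower, which brought the counts with the block to 2 higher (1.25%) and 3 lower (1.88%), where 1.66% and 2.57% of all genes tested were. With no block, the difference of *Atp6v1c2* was 0.27 without siDerl1 sample 2 and 0.73 without siControl sample 2.

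**Figure D5:**
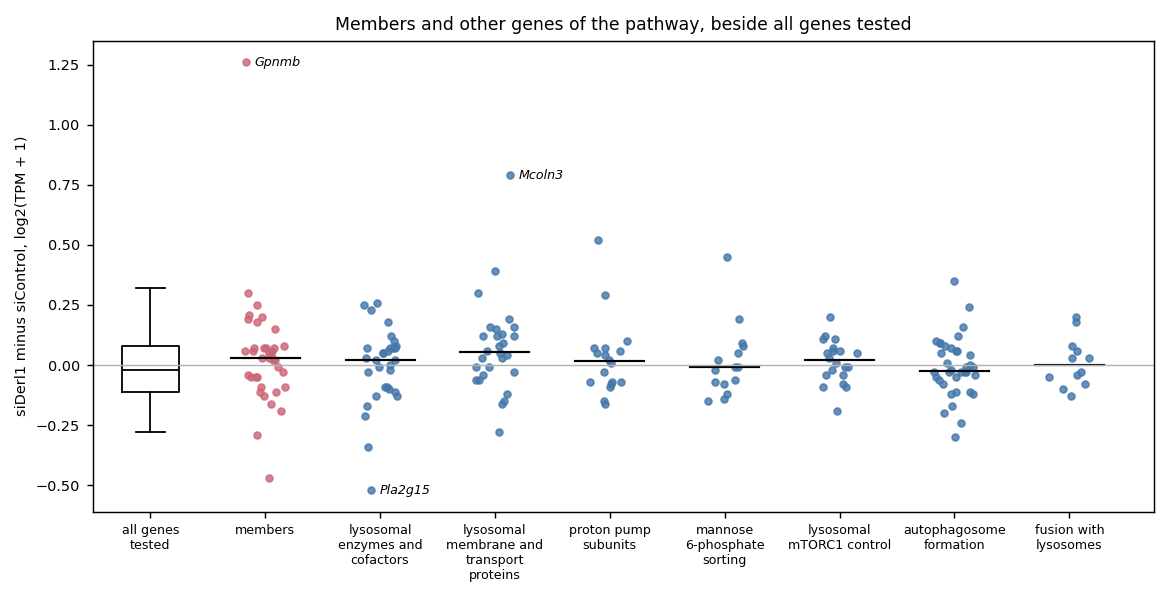
Log2(TPM + 1) differences between siDerl1 and siControl NSCs for the members (red) and 7 other classes of pathway genes (blue), with 1 point per gene and a bar at the median, beside a box for all genes tested (quartiles, whiskers at the 5th and 95th percentiles, −0.28 and 0.32). Each class is centred near 0, and *Gpnmb* and *Mcoln3* lie farthest above the rest.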

How the data were processed

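Total RNA of 6 samples was made into poly(A) libraries with a directional kit and sequenced on an Illumina HiSeq X. According to the methods and the submitters' processing notes, reads were cleaned with Trimmomatic (0.39), STAR (2.7.3a) placed them on the rn6 genome and RSEM (1.3.2) estimated expression. The authors deposited TPM with 2 decimals, in tables of 17315 rows by gene symbol and RefSeq identifier. TPM are shares of a fixed sum and keep no depth, so no counting error can be given. The authors' own test was edgeR, on values not used here.

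Groups were taken from the sample titles. They were compared with limma 3.58.1 (R 4.3.3) after the transformation log2(TPM + 1), using an intensity trend and Benjamini-Hochberg adjustment over the 10331 genes with a mean of at least 1 TPM. The limits on fold change are those of the authors' methods. The fits were tested on simulated data. Other settings tried were no filter, a pseudocount of 0.1, a mean of at least 5 TPM, median-of-ratios scaling, no trend, the replicate number as a block (also with no trend or no filter) and each sample left out. Leaving out both samples numbered 1, with and without the block, was added after the values were seen. Across genes, the deviations from the group mean of like-numbered siControl and siDerl1 samples had correlations of 0.7, 0.35 and 0.51 for numbers 1, 2 and 3. The unlike pairs of samples 2 and 3 had 0.34 (siControl 2 with siDerl1 3) and 0.25 (siControl 3 with siDerl1 2), so the check sets number 1 apart and hardly tells 2 from 3. The labels number the samples alike and name no shared day, so the pairing comes from this check alone.

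The members and gene lists were chosen with earlier results of these data known. All members are named, with values per sample for those past the limits, with groups that do not overlap, or under 1 TPM, and for *Ctss*, *Cd68*, *Laptm5*, *Hexa*, *Cd63* and *Mitf*, which were chosen after their values were seen. Of the other pathway genes, those past the limits without the block are named, except for an item that is not reported here. Some symbols of that list (12 of 182) were not analysed here. Promoters were taken from RefSeq (GRCr8) and matched by symbol.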

Additional observations from a re-analysis of the deposited data

How the results depend on the processing

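*Gpnmb* was past the limits as higher in every fit run, with a log2 fold change from 0.78 (without siDerl1 replicate 1) to 1.5, and 1.42 with a pseudocount of 0.1. With the replicate block (pairs of like-numbered samples) the members past the limits were again 1 higher and 0 lower, 0 had an adjusted p under 0.05, and the median was 0.03. The block changed no call of a member, but *Mcoln3*, *Atp6v1c2* and *Wdfy3* were past the limits with it and, over all 6 samples, not without it (*Wdfy3* was also without siControl replicate 1), and the adjusted p of *Derl1* went under 0.05. Without both samples numbered 1, *Mcoln3* and *Atp6v1c2* were not past the limits, with or without the block, while *Wdfy3* was past them in both fits. Of the 57 genes with an adjusted p under 0.05 with the block, 0 passed with no intensity trend, and 2 genes passed with no filter. With no filter on low values, with or without the block, 1 member (*Ctsk*) was past the limits as lower, because its mean is under 1 TPM, where 1.62% of all genes tested were (2.58% with the block), and the median was 0.02. Median-of-ratios scaling gave a median of 0.05. Leaving out 1 sample in turn gave 1 to 2 members higher (0.572% to 1.14% of all genes tested), 0 to 1 lower (1.21% to 2.53%), 0 with an adjusted p under 0.05 and a median from −0.01 to 0.07. The additional calls were *Ctss* without siControl replicate 1, *Laptm5* without siControl replicate 2 and *Cd68* without siControl replicate 3, all under 10 TPM; the cause was not tested. Without both samples numbered 1, 2 members (*Ctss* and *Gpnmb*) were past the limits as higher, both without the block (1.56% of all genes tested) and with it (1.97%). With the block, 3 members (*Ctsl*, *Gpnmb* and *Laptm4a*) then had an adjusted p under 0.05 from limma, where 4.89% of all genes tested did, in a fit of 2 pairs. Depth is not known, so for genes near 1 TPM counting error cannot be told from other spread.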
